A study of Sus scrofa with 10 samples.

Results

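A set of 35 genes for folding chaperones of the cytosol and mitochondria was followed in pig morulae after knockdown of DDB1. The set was a list of named genes whose rule used no measured value, though it was chosen with earlier results of these data known. It covers the HSP90 and HSP70 families with their helper proteins, the ring-shaped chaperonin TRiC, its partner prefoldin, and the chaperones of the mitochondrial matrix. Of the 35, 33 had a row among the 24358 genes listed and 32 reached the mean level at which a gene was tested. HSP90AA1 and PFDN5 are not analysed here, and HSPA1L fell below that level.

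Chaperones bind proteins that are not yet folded, or have come unfolded, and release them in cycles driven by ATP. HSP70 acts early, on exposed stretches of chain that J-domain proteins hand to it, and BAG proteins and HSP110 then help it to let go of ADP. HSP90 receives part of these clients through the adaptor STIP1, while TRiC encloses actin and tubulin, which prefoldin delivers. In the early embryo the cytosolic HSP70 gene HSPA8 and HSP90AB1 are expressed constitutively, without heat.

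RNA came from 10 libraries of pig embryos (Sus scrofa) at the morula stage, at which blastomeres compact before a blastocyst forms. All embryos were parthenotes: matured oocytes received an siRNA, were activated without sperm and were grown to the morula, so neither group carries a paternal genome. The siRNA of 5 libraries targeted DDB1 (group DDB1_KD), that of the other 5 was non-specific (group NC). The labels give no age, strain or number of embryos per library and do not state whether a group's libraries stem from separate cultures, so p-values measure the spread between these libraries, which may be technical. The title of the series names apoptosis and lineage differentiation, and the chaperones were compared between the groups as part of that design.

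Libraries held 32466912 to 50911295 estimated counts over 13522 to 14755 genes. All 7 morula markers had a mean of at least 1 FPKM (fragments counted relative to transcript length and library size). None of the 7 listed cumulus cell markers, 5 fibroblast markers and 4 blood cell markers did, and the cumulus marker FSHR was at 0. The summed blood cell markers were 0.628 to 2.30 FPKM in DDB1_KD and 0.254 to 0.534 in NC, groups that did not overlap, and their part in the results was not tested. Of these markers, CD3E averaged 0.892 and 0.0609 FPKM, ITGAM 0.291 and 0.272, ALAS2 0.0671 and 0.0432, and PTPRC 0.00346 and 0.0108. The mitochondrially encoded genes took 12.2% to 24.4% of the counts in DDB1_KD and 8.58% to 18.4% in NC. DDB1 was at 1.27 ± 0.227 FPKM (SD, n = 5) in DDB1_KD and 3.37 ± 0.708 in NC (SD, n = 5), with every DDB1_KD library below every NC library. The fitted log2 fold change was -1.39 ± 0.28 (SE), with an adjusted p of 0.977 by edgeR and 0.0069 by DESeq2. In bulk embryos, fewer cells of a type and less RNA per cell cannot be told apart.

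No chaperone gene of the set passed the test. edgeR called 0 of the 32 genes at an adjusted p under 0.05, and 0 of all 8476 genes (0.0%), with adjusted p-values of the set from 0.977 to 0.999. At an unadjusted p under 0.05 there were 0 of 32 chaperones beside 245 of all genes (2.89%, with 1.13% lower and 1.76% higher). DESeq2 and limma on log2(FPKM + 1) also called 0 of the 32, beside 2 genes (0.0236%) and 0 genes (0.0%) of the 8476, with 353 (4.16%) and 273 genes (3.22%) at an unadjusted p under 0.05. Of the 32 chaperones, 1 was at an unadjusted p under 0.05 with DESeq2 (DNAJB6, 0.0482) and 0 with limma. The fitted value was lower in DDB1_KD for 23 chaperones and higher for 9, where 50.0% of all genes were lower, and with RLE or DESeq2 scaling it was lower for 20 and higher for 12. The median log2 fold change of the set was -0.08, and that of all genes 0.00. These values describe the set, and the members share the same 10 libraries.

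**Figure D1:**
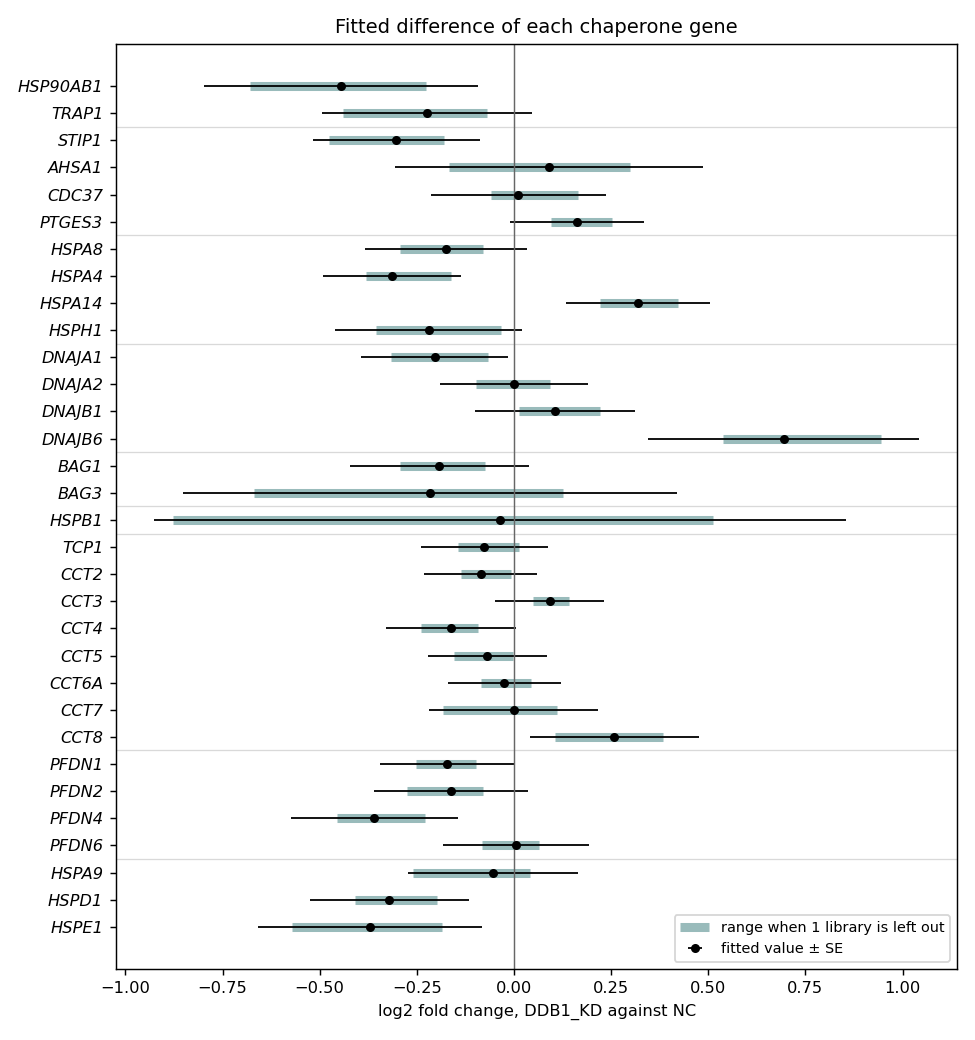
Fitted log2 fold change of DDB1_KD against NC for the 32 tested chaperone genes, grouped by role. Points are edgeR values, thin lines ± 1 SE and thick bands the range when each library in turn is left out; the values run from -0.44 for HSP90AB1 to 0.69 for DNAJB6, and 10 of the bands cross 0.

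The HSP90 genes and their co-chaperones did not share a direction, with 3 fitted values below 0 and 3 above, of which CDC37 at 0.01 was below 0 with limma (-0.02). HSP90AB1, the constitutive cytosolic HSP90 (chr7:39237294-39254002 in susScr11, plus strand), was at 196, 53.8, 127, 265 and 107 FPKM in DDB1_KD libraries 1 to 5. Its NC values were 225, 255, 121, 207 and 199.8 FPKM. The groups overlapped, since DDB1_KD held both the highest value of all and 2 values below the lowest NC library. The means were 149.8 ± 82.2 and 202 ± 49.8 FPKM (SD, n = 5 each), a log2 fold change of -0.44 ± 0.35 (SE), with a 95% interval of -1.21 to 0.32 and an edgeR adjusted p of 0.977. This estimate depended on single libraries: it was -0.68 without DDB1_KD replicate 4 and -0.23 without DDB1_KD replicate 2.

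TRAP1, the HSP90 of mitochondria, was far less abundant. It measured 12.1, 7.80, 8.69, 19.2 and 8.36 FPKM in DDB1_KD and 14.6, 9.59, 12.3, 9.68 and 19.5 FPKM in NC. As for HSP90AB1, DDB1_KD library 4 held the highest and library 2 the lowest TRAP1 value of its group. The log2 fold change was -0.22 ± 0.27 (SE, edgeR adjusted p = 0.977).

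STIP1, the adaptor that passes clients from HSP70 to HSP90, was at 31.1, 21.1, 30.9, 50.6 and 23.6 FPKM in DDB1_KD and 46.2, 36.3, 32.6, 35.5 and 42.7 in NC. Of the 5 DDB1_KD values, 4 were below the whole NC range, and that of library 4 was above it. The log2 fold change was -0.30 ± 0.21 (SE, edgeR adjusted p = 0.977). It was -0.18 without DDB1_KD replicate 2 and -0.48 without DDB1_KD replicate 4, where the edgeR p was 0.0293 before adjustment. AHSA1, which speeds up the ATPase of HSP90, was at 15.2, 38.9, 28.9, 21.5 and 8.37 FPKM in DDB1_KD and 30.0, 25.6, 26.8, 11.4 and 11.3 in NC. Its range within either group was wider than the difference between them, a log2 fold change of 0.09 ± 0.40 (SE). PTGES3 (p23), which stabilises the closed form of HSP90, was at 129.9, 132, 136, 106 and 90.2 FPKM in DDB1_KD and 96.4, 122, 112, 101 and 102 in NC. For PTGES3, 3 DDB1_KD libraries were above all NC libraries and 1 was below them, and the log2 fold change was 0.16 ± 0.17 (SE). CDC37, which brings protein kinases to HSP90, had means of 34.9 ± 9.63 and 34.6 ± 7.02 FPKM (SD, n = 5 each).

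**Figure D2:**
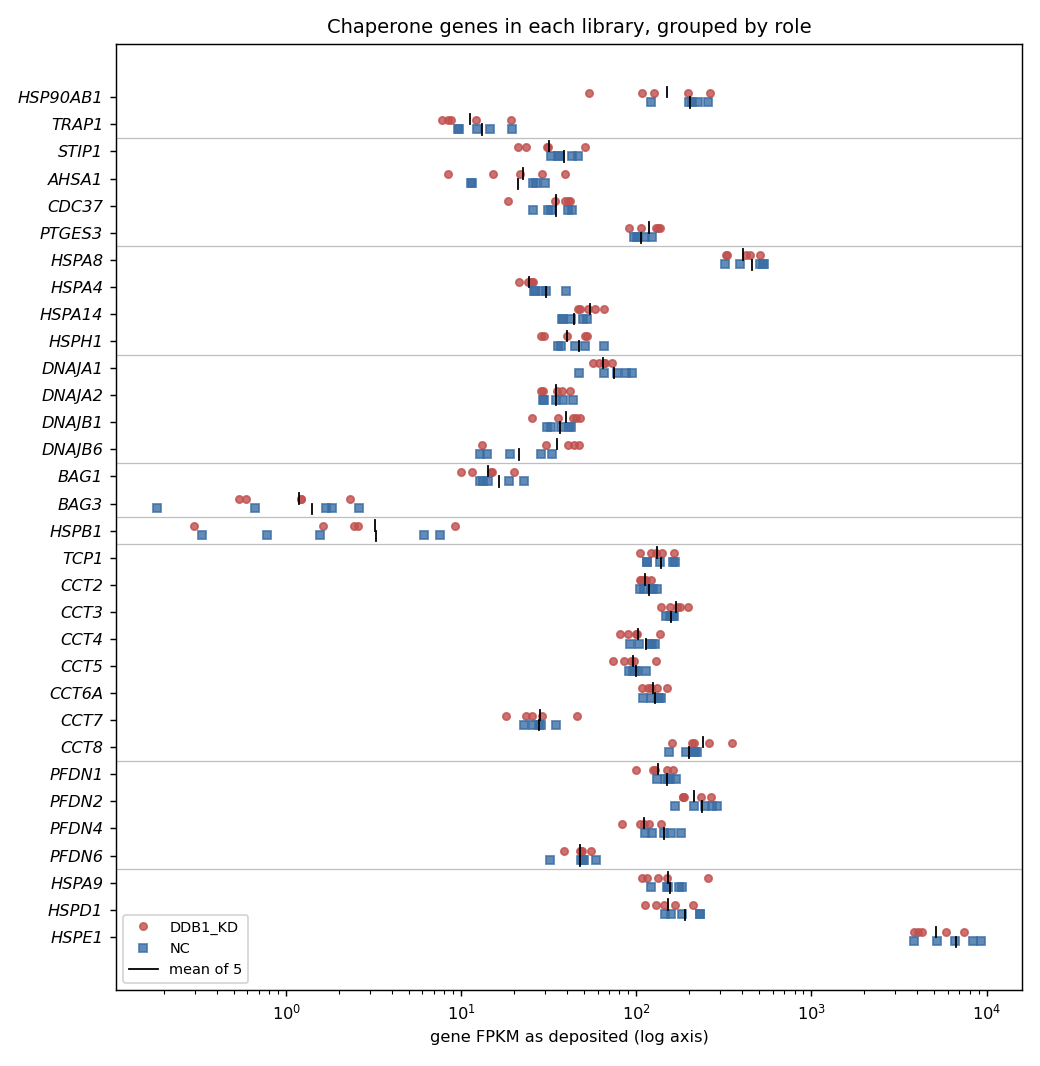
Deposited gene FPKM of the 32 tested chaperone genes in each of the 10 libraries, on a log axis, with circles for DDB1_KD, squares for NC and a line at each group's mean. The groups overlap for every gene shown except HSPA4, and HSPE1 lies far above the others at 3847 to 9324 FPKM.

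In the cytosolic HSP70 and HSP110 group stood HSPA4, the only tested chaperone whose groups did not overlap in FPKM. HSPA4 encodes an HSP110-type nucleotide exchange factor (chr2:135305749-135389159, plus strand). It was at 25.0, 21.3, 25.3, 25.7 and 24.2 FPKM in DDB1_KD and at 29.1, 39.5, 25.9, 30.5 and 26.4 in NC. The gap was narrow, between 25.7 and 25.9 FPKM, and 35 of all 8476 genes (0.413%) had groups that did not overlap, 19 of them (0.224%) lower in DDB1_KD. On the TMM-scaled log2 CPM scale (counts relative to library size) the HSPA4 groups did overlap, with DDB1_KD values up to 8.16 and NC values from 8.04. The means of 24.3 ± 1.79 and 30.3 ± 5.49 FPKM (SD, n = 5 each) gave a log2 fold change of -0.31 ± 0.18 (SE), with an interval of -0.70 to 0.07 and an edgeR adjusted p of 0.977. Without NC replicate 2, the highest library, it was -0.16.

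HSPA8, the constitutive cytosolic HSP70 (chr9:49978078-49987088, minus strand), was at 423, 328, 326, 506 and 448 FPKM in DDB1_KD. NC libraries held 533, 531, 389, 509 and 322 FPKM of HSPA8. The lowest of the 10 values was in NC, and the log2 fold change was -0.18 ± 0.21 (SE, interval -0.63 to 0.28). HSPH1, the main HSP110, was at 40.1, 28.6, 52.1, 50.6 and 29.6 FPKM in DDB1_KD and 50.9, 65.3, 44.8, 37.3 and 35.7 in NC (-0.22 ± 0.24, log2 fold change and SE). HSPA14, an HSP70 relative that works at the ribosome, had the opposite sign. It was at 46.5, 58.4, 52.7, 47.9 and 65.6 FPKM in DDB1_KD and 38.1, 37.4, 42.3, 52.3 and 49.6 in NC. Above every NC library were 3 DDB1_KD libraries, and 3 NC libraries were below every DDB1_KD library, with a log2 fold change of 0.32 ± 0.19 (SE, interval -0.08 to 0.72, edgeR adjusted p = 0.977). HSPA1L, an HSP70 otherwise known from the testis, was at 0.263 FPKM or less in every library and had no count in 4 of them, where the file lists 0.0001.

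J-domain proteins deliver clients to HSP70 and trigger its ATPase, and DNAJB6 had the smallest p of the set. DNAJB6 suppresses protein aggregation (chr18:1444739-1499876, minus strand). It was at 30.3, 44.1, 46.8, 40.7 and 13.1 FPKM in DDB1_KD and 28.6, 32.9, 13.9, 12.8 and 19.1 in NC. DDB1_KD libraries 2, 3 and 4 were above all NC libraries, while library 5 lay among the lowest NC values. The means were 35.0 ± 13.7 and 21.5 ± 8.94 FPKM (SD, n = 5 each), and the log2 fold change was 0.69 ± 0.35 (SE), with an interval of -0.06 to 1.45 and an edgeR p of 0.0692 before and 0.977 after adjustment. Leaving out single libraries gave 0.54 to 0.94, and the unadjusted edgeR p was 0.0131 without DDB1_KD replicate 5 and 0.0216 without NC replicate 2.

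DNAJA1, a main partner of HSPA8, was at 66.6, 65.2, 61.1, 72.4 and 56.7 FPKM in DDB1_KD and 87.4, 94.0, 77.7, 47.1 and 65.6 in NC. NC libraries 1, 2 and 3 exceeded every DDB1_KD library and library 4 was below them all, and the log2 fold change was -0.20 ± 0.19 (SE). DNAJB1, the J-domain protein induced by heat, was at 43.5, 45.4, 47.7, 35.5 and 25.3 FPKM in DDB1_KD and 41.1, 32.7, 37.3, 42.2 and 30.9 in NC (0.11 ± 0.21, log2 fold change and SE). DNAJA2 was at 34.5 ± 5.53 and 35.0 ± 5.91 FPKM (SD, n = 5 each), with an interval of -0.41 to 0.41 for its log2 fold change.

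BAG1, which couples HSP70 to the proteasome, was at 14.8, 9.90, 14.9, 20.1 and 11.5 FPKM in DDB1_KD and 18.8, 13.3, 14.3, 12.9 and 22.7 in NC (-0.19 ± 0.23, log2 fold change and SE). BAG3, which directs clients to autophagy, was barely detected, with 1.21, 0.534, 2.33, 1.22 and 0.589 FPKM in DDB1_KD and 2.61, 1.69, 1.82, 0.183 and 0.667 in NC (-0.22 ± 0.64, log2 fold change and SE). HSPB1, the small heat shock protein HSP27, ran from 0.297 to 9.17 FPKM in DDB1_KD and from 0.331 to 7.54 in NC. Its values were 0.297, 9.17, 2.58, 2.45 and 1.61 FPKM in DDB1_KD and 6.13, 1.56, 7.54, 0.777 and 0.331 in NC, so each group held libraries at both ends of the range. With a log2 fold change of -0.04 ± 0.89 (SE), HSPB1 was the least certain value of the set, and leaving out 1 library moved it between -0.88 and 0.51.

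The reads of some of these genes may be shared. No source used here tells whether counting used the strand. On the genome 20 of the chaperone genes overlap another listed gene, 16 of them one on the other strand. For 9 the neighbour's counts exceed 10% of the member's own, and the neighbour outweighs the chaperone for BAG3 (TIAL1, 870% of the BAG3 counts) and BAG1 (CHMP5, 514%). For PFDN1 the neighbour CYSTM1 holds 70.8%, for PFDN6 WDR46 holds 45.6%, for DNAJA2 GPT2 holds 40.1% and for DNAJA1 SMU1 holds 32.4%. For HSPD1 the neighbours SF3B1, on the same strand, and COQ10B hold 18.3% and 10.9%. An unnamed gene on the same strand holds 15.6% for HSPA14, and KLHDC9 holds 12.9% for PFDN2. Use of the strand would not separate the neighbours on the same strand. Overlap was taken over whole gene spans, introns included. Whether a chaperone and its overlapping neighbour share reads was not tested.

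All 8 listed subunits of TRiC were measured, and edgeR called 0 of the 8. TRiC is built from rings of 8 different subunits, TCP1 being the first, and each ring holds 1 of each. The fitted value was lower for 6 subunits and higher for 2, the median was -0.05 on the log2 scale, and every value lay between -0.16 (CCT4) and 0.26 (CCT8). The lower count includes CCT7 at -0.00, which was above 0 with RLE or DESeq2 scaling (0.02).

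CCT8 (chr13:192407979-192423368, minus strand) was at 159.6, 352, 259, 208 and 214 FPKM in DDB1_KD and 215, 221, 192, 213 and 153 in NC. Of the NC values, 4 lay inside the DDB1_KD range and 1 below it, and DDB1_KD library 2 stood well above all other libraries. Its log2 fold change was 0.26 ± 0.22 (SE, interval -0.21 to 0.73), and 0.11 without DDB1_KD replicate 2. CCT4 was at 100.1, 89.0, 101, 136 and 81.0 FPKM in DDB1_KD and 103, 123, 92.3, 119 and 128 in NC (-0.16 ± 0.17, log2 fold change and SE). CCT3 was at 156, 197, 170.3, 178 and 138 FPKM in DDB1_KD and 164, 162, 148, 158 and 155 in NC. The 5 NC values of CCT3 all lay inside its DDB1_KD range, and the log2 fold change was 0.09 ± 0.14 (SE). For TCP1, CCT2, CCT5 and CCT6A the log2 fold changes were -0.08, -0.09, -0.07 and -0.03, with intervals no wider than -0.43 to 0.29.

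The RNA levels of the subunits were unequal. The complex takes 1 protein of each, and protein was not measured here. To compare genes per length, the FPKM of a gene's isoforms were summed, because the deposited gene FPKM uses a combined length of all isoforms and understates genes with many. On this scale CCT7 was the lowest TRiC subunit in all 10 libraries, at 28.0 FPKM on average, and the second lowest subunit was at 73.5 to 120.9 FPKM. TCP1 was the highest in 7 libraries and CCT8 in 3. The highest subunit was 6.43 to 15.1 times the lowest in DDB1_KD and 7.33 to 13.4 times in NC. The CCT7 model has 7025 bases, against 1650 for CCT8, and the part of the length in its low value was not tested.

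**Figure D3:**
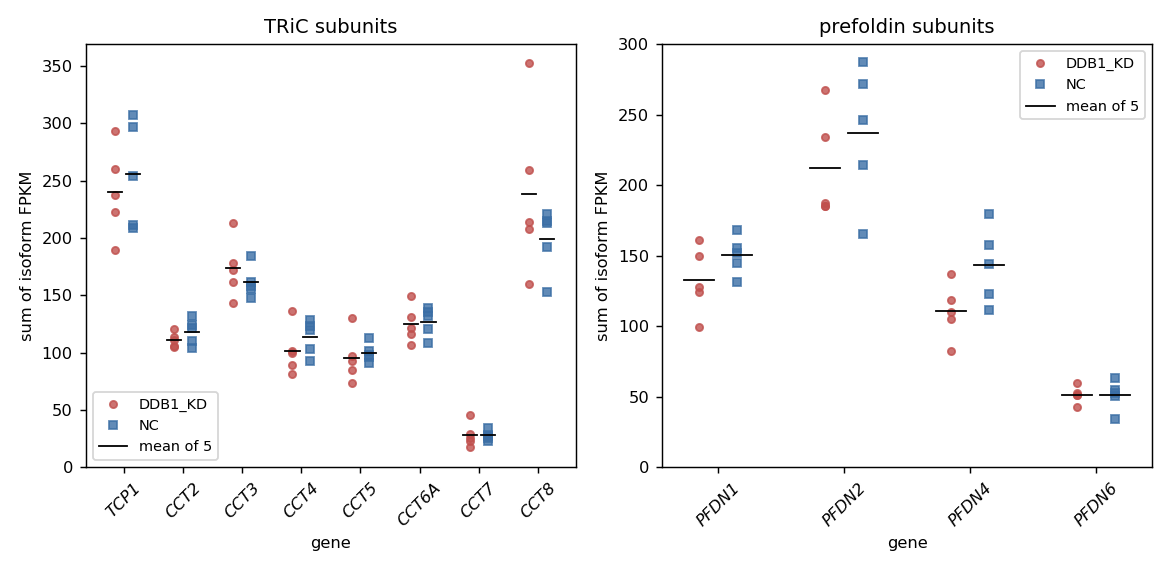
Summed isoform FPKM of the TRiC subunits (left) and of the set's 4 tested prefoldin subunits (right) in each library. Circles mark DDB1_KD, squares NC and lines the mean of 5. In all 10 libraries CCT7 is the lowest TRiC subunit and PFDN6 the lowest of the 4 prefoldin subunits shown.

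Prefoldin is a jellyfish-shaped complex that captures actin and tubulin chains for TRiC. PFDN4 (chr17:55155763-55168024, plus strand) was at 137, 82.6, 110.5, 105 and 119 FPKM in DDB1_KD and 158, 179.8, 123, 144 and 111 in NC. NC libraries 1, 2 and 4 were above every DDB1_KD library, and DDB1_KD libraries 2, 3 and 4 were below every NC library. The means were 111 ± 20.0 and 143 ± 27.2 FPKM (SD, n = 5 each), a log2 fold change of -0.36 ± 0.21 (SE), with an interval of -0.82 to 0.11 and an edgeR adjusted p of 0.977.

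PFDN1 was at 161, 124, 149.9, 128 and 99.6 FPKM in DDB1_KD and 155, 152, 168, 145 and 132 in NC (-0.17 ± 0.17, log2 fold change and SE). PFDN2 was at 268, 188, 185, 235 and 185 FPKM in DDB1_KD and 288, 246, 166, 272 and 214 in NC (-0.16 ± 0.20, log2 fold change and SE). In both genes the ranges of the groups overlapped. PFDN6 had nearly equal means of 47.6 ± 5.77 and 47.8 ± 9.79 FPKM (SD, n = 5 each). By summed isoforms PFDN6 was the lowest of the 4 subunits in all 10 libraries and PFDN2 the highest in 9. The row whose Ensembl name is PFDN5 is named C12orf10 in the deposited table. It was not counted as prefoldin and was also left out of this order.

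In the mitochondrial matrix HSPA9 takes up imported chains, and HSPD1 (HSP60) then folds part of them in a barrel closed by the lid HSPE1 (HSP10). HSPD1 and HSPE1 lie head to head on chromosome 15, HSPD1 at chr15:101321360-101373878 on the minus strand and HSPE1 at chr15:101373976-101376144 on the plus strand. HSPD1 was at 167, 112, 129, 209 and 144 FPKM in DDB1_KD and 157, 232, 147, 182 and 232 in NC. HSPE1 was at 5901, 4065, 7459, 4288 and 3868 FPKM in DDB1_KD and 8384, 9324, 6636, 5209 and 3847 in NC. In neither gene were the groups apart, and the lowest of the 10 HSPE1 values was in NC library 5. The log2 fold changes were -0.32 ± 0.20 (SE, interval -0.76 to 0.12) for HSPD1 and -0.37 ± 0.29 (SE, interval -1.0 to 0.25) for HSPE1, with an edgeR adjusted p of 0.977 for each. Without NC replicate 2 they were -0.20 and -0.19, and without DDB1_KD replicate 3 the HSPE1 value was -0.57.

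HSPA9 was at 149, 115, 133, 255 and 107 FPKM in DDB1_KD and 149, 175, 121, 152 and 183 in NC. DDB1_KD library 4 was above all others, the other 4 DDB1_KD libraries were below the NC median of 152, and the log2 fold change was -0.05 ± 0.22 (SE). All 3 mitochondrial members had fitted values below 0, with a median of -0.32, but the HSPA9 value was above 0 without DDB1_KD replicate 2 (0.04), DDB1_KD replicate 5 (0.03) or NC replicate 2 (0.02), and was -0.26 without DDB1_KD replicate 4.

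HSPD1 and HSPE1 differed widely in level. By summed isoforms HSPE1 was 14.4 ± 5.95 times HSPD1 in DDB1_KD (SD, n = 5, range 7.22 to 23.1) and 15.8 ± 6.20 times in NC (SD, n = 5, range 7.52 to 22.9). By deposited gene FPKM the ratios were 35.4 and 36.8, because the gene value of HSPD1 is spread over 7019 bases and that of HSPE1 over 612. HSPE1 was the 15th most abundant of all tested genes by gene FPKM.

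Ordered by mean summed isoform FPKM, HSPE1 (5927) was followed by HSPA8 (1275), HSPD1 (413), TCP1 (248), PFDN2 (225), CCT8 (219), HSP90AB1 (192) and HSPA9 (187). From TCP1 to HSPA9 the library values of neighbours in this order overlap. The lowest were TRAP1 (14.9), HSPB1 (3.52), BAG3 (1.29) and HSPA1L (0.0821). By gene FPKM the 32 tested chaperones had a median of 83.5 against 5.70 for all tested genes, and 30 of them were above that median. The 5 members whose isoform sum exceeded the gene value by more than 1.5 times were HSPA8 (2.96 times), DNAJB6 (2.42), HSPD1 (2.41), HSPA4 (2.13) and TCP1 (1.83).

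The members varied less between libraries of a group than most genes. The edgeR estimate of variation beyond counting (the biological coefficient of variation) had a median of 26.6% over the 32 members, from 20.6% for CCT3 to 93.7% for HSPB1, and 38.8% over all tested genes. Of the 32, 27 were below the median of all genes. The members were also more abundant than most genes, and the part of abundance in this difference was not tested.

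Some libraries held the extreme values of many of the genes. The set took 1.32% of the counts in DDB1_KD library 2, the lowest share, and 2.12% in NC library 2, the highest. DDB1_KD library 2 held the lowest value of 10 of the 32 genes and the highest of 4. DDB1_KD library 5 held the lowest of 6 and the highest of 2, while NC library 2 held the highest of 11 and the lowest of 1. On the log2 CPM scale, 22 genes in DDB1_KD library 2 and 25 in library 5 were below their own mean over the 10 libraries, with medians of -0.19 and -0.23. Low libraries also occurred in NC: 22 genes were below their mean in NC library 3 and 22 in NC library 5, with medians of -0.10 and -0.15. The highest medians were 0.20 in NC library 2 and 0.18 in NC library 1, and the median over all tested genes stayed between -0.03 and 0.05 in every library.

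**Figure D4:**
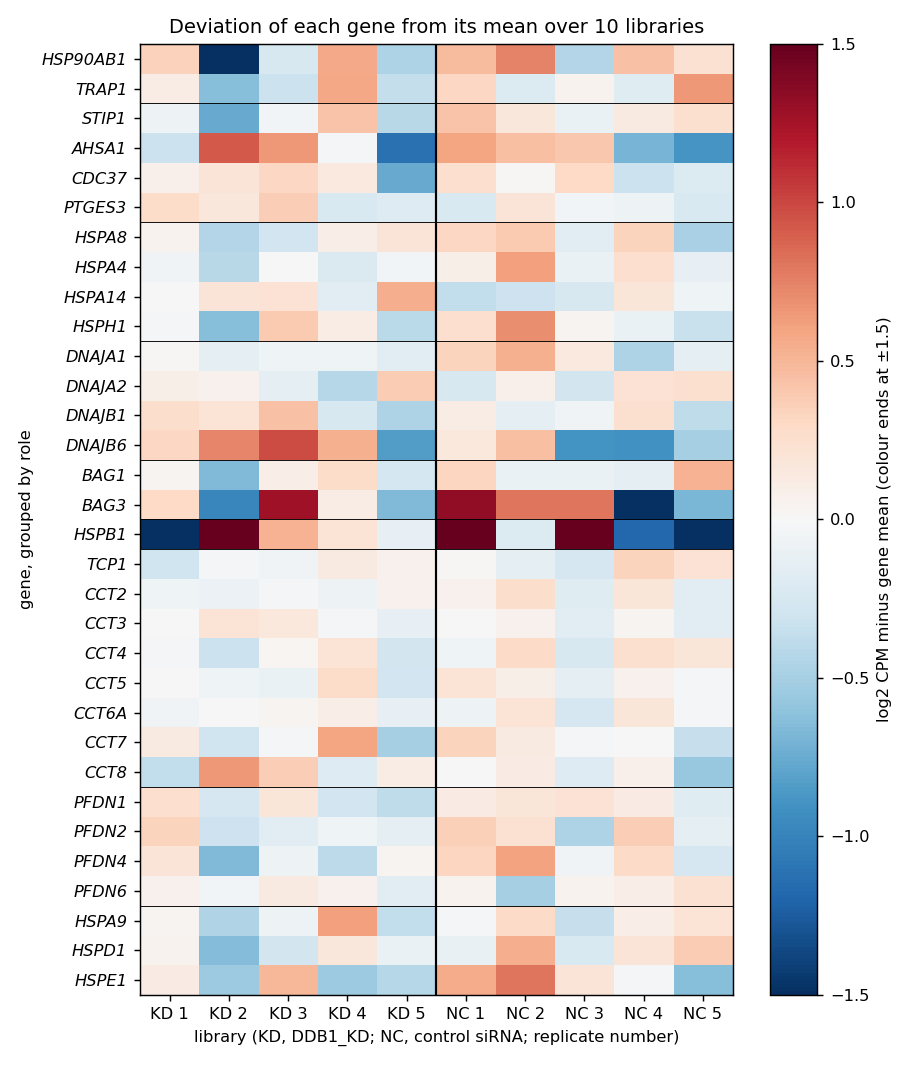
Deviation of each chaperone gene from its own mean over the 10 libraries, in log2 CPM, with genes in rows by role and libraries in columns; red is above and blue below the mean, and colours end at ± 1.5. DDB1_KD libraries 2 and 5 show blue in 22 and 25 of 32 rows, and NC library 2 in 7.

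Transcripts stored by the oocyte were high in some of the same libraries. The mean log2 CPM of 13 oocyte transcripts was 1.40, 4.96, 4.76, 3.10 and 4.60 in DDB1_KD libraries 1 to 5 and 3.0, 3.44, 4.33, 2.53 and 2.11 in NC libraries 1 to 5. All 13 had fitted values above 0, with a median log2 fold change of 0.87, and edgeR called 0 of them at an adjusted p under 0.05. DDB1_KD libraries 2 and 5 were among the 3 highest in oocyte transcripts and had the lowest chaperone medians, while DDB1_KD library 3 was as high in oocyte transcripts with a chaperone median of 0.04. The part of the oocyte transcripts in the chaperone values was not tested.

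At the level of isoforms, 58 of 71 listed chaperone isoforms were tested among 11250. edgeR called 0 of the 58, and 1 of all isoforms (0.00889%), while DESeq2 called 2 of the 58 and 68 of all isoforms (0.604%). At an unadjusted p under 0.05 there were 6 of the 58, 3 higher and 3 lower, beside 378 of all isoforms (3.36%, with 1.97% higher and 1.39% lower). The 3 higher ones had no counts in NC and reached the tested level only through DDB1_KD. Of the 3 lower ones, a STIP1 isoform had no counts in DDB1_KD and reached that level only through NC. An HSP90AB1 isoform had counts in DDB1_KD library 2 alone, an HSPA14 isoform in library 5 alone and an HSPA8 isoform in 2 libraries. Without that library the HSP90AB1 and HSPA14 isoforms had a log2 fold change of 0, so this count rests on single libraries. The fitted value was lower for 35 of the 58, beside 49.4% of all isoforms, and the groups overlapped in FPKM for each of the 58, beside 0.373% of all isoforms without overlap. The smallest p of the set was that of the HSPD1 isoform ENSSSCT00000022887, with 13 exons. It was at 1.31, 0.596, 2.76, 2.46 and 0.798 FPKM in DDB1_KD and 2.03, 18.5, 15.8, 4.46 and 23.6 in NC. NC libraries 2 to 5 were above all DDB1_KD libraries and NC library 1 was among them. The log2 fold change was -3.0 ± 0.73 (SE), with a p of 0.0022 by edgeR before adjustment and 1.0 after it, whereas DESeq2 gave an adjusted p of 0.0037. It was a minor isoform, which took 0.396% ± 0.255 (SD, n = 5) of the HSPD1 counts in DDB1_KD and 2.48% ± 1.67 (SD, n = 5) of those in NC.

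The main HSPD1 isoform, ENSSSCT00000064449, was at 221, 199, 156, 243 and 213 FPKM in DDB1_KD and 210.3, 374, 229, 276 and 405 in NC. NC libraries 2, 4 and 5 were above all DDB1_KD libraries. The log2 fold change was -0.53 ± 0.21 (SE), with an edgeR p of 0.029 before and 1.0 after adjustment. The other members' isoforms with the smallest p were present in a few libraries only. STIP1 isoform ENSSSCT00000027308 had no counts in DDB1_KD and stood at 1.70, 50.8 and 3.44 FPKM in NC libraries 1, 4 and 5. HSPA8 isoform ENSSSCT00000037671 was at 143 and 109.5 FPKM in DDB1_KD libraries 2 and 4 and had no counts elsewhere. DESeq2 called it and edgeR did not. It reached the tested level only through these 2 libraries, so the call carries no weight. In NC library 4 the STIP1 isoform took 90.3% of the gene's counts, while the gene total of 35.5 FPKM was inside the range of the group.

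**Figure D5:**
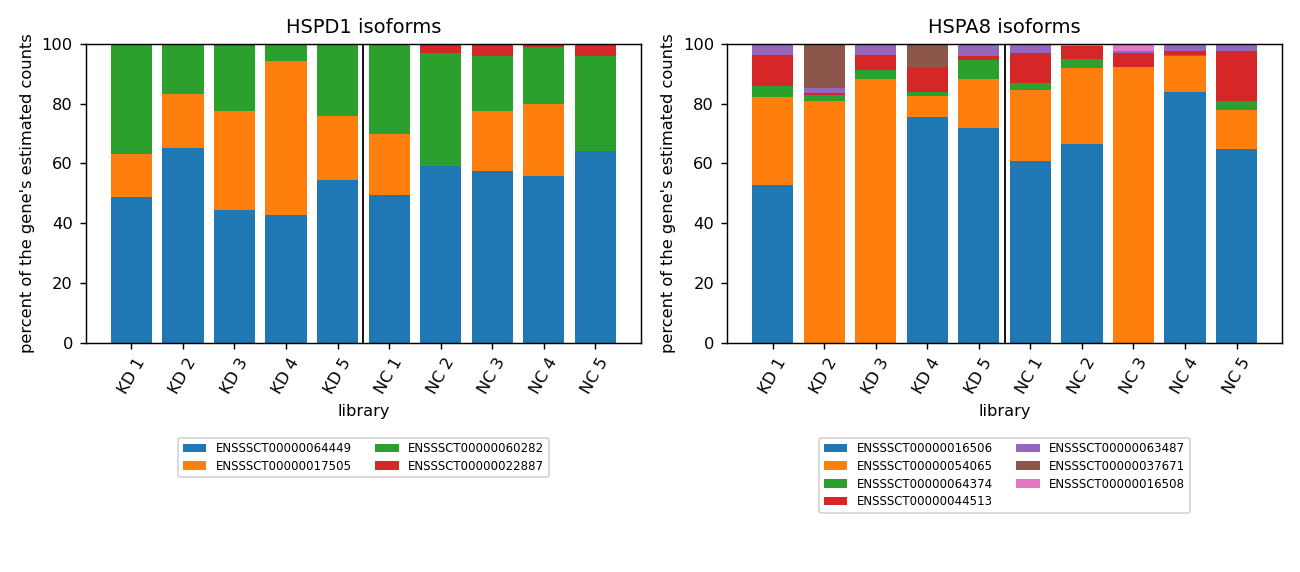
Share of the estimated counts of HSPD1 (left) and HSPA8 (right) assigned to each isoform in the 10 libraries, in percent. One HSPA8 isoform runs from 0 to 84.0% between libraries of 1 group, and the HSPD1 isoform ENSSSCT00000022887 reaches at most 4.10%.

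Assignment to isoforms changed from library to library. Of the 12 members with at least 2 isoforms at a mean of 1 FPKM or more, 9 had different leading isoforms in different libraries, and HSPA4, HSPH1 and TCP1 kept 1. The HSPA8 isoform ENSSSCT00000016506 led in 7 libraries with up to 84.0% of the counts and had none in DDB1_KD libraries 2 and 3 and NC library 3. In those libraries ENSSSCT00000054065 held 81.0%, 88.2% and 92.2%. For DNAJB6, ENSSSCT00000046197 led in DDB1_KD libraries 1 to 4 and NC libraries 1 and 2, which were also the 6 libraries with the highest DNAJB6 gene values. It was at 49.2, 64.9, 73.8, 68.7 and 0.888 FPKM in DDB1_KD and 47.3, 57.7, 2.24, 3.20 and 3.47 in NC. ENSSSCT00000060196, which led DNAJB6 in the remaining libraries, was at 17 to 37.8 FPKM in DDB1_KD and 15.6 to 49.1 in NC. The third tested DNAJB6 isoform, ENSSSCT00000037441, averaged 2.41 FPKM. The remaining members whose leading isoform differed between libraries were CCT3, HSP90AB1, HSPA14, HSPA9, HSPD1, PFDN6 and STIP1.

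The 9 further lists of chaperone pathway genes, with 90 genes of which 73 were tested, gave no call either. edgeR called 0 of the 73, and 0 had an unadjusted p under 0.05. The fitted value was higher for 40 and lower for 33, with a median log2 fold change of 0.02. Among heat shock factors, HSF2 was at 11.8 ± 2.73 and 8.12 ± 2.55 FPKM (SD, n = 5 each), which gave 0.54 ± 0.28 (log2, SE), and HSBP1, which binds HSF1, gave -0.06. HSF1, the main heat shock factor, ran from 0.700 to 9.91 FPKM in DDB1_KD, and its log2 fold change of 0.05 became -1.16 without DDB1_KD replicate 4. PPID, an HSP90 co-chaperone of the cyclophilin family, was at 67.4 ± 19.7 and 48.7 ± 11.5 FPKM (SD, n = 5 each; 0.48 ± 0.24, SE), and FKBP5, a co-chaperone of steroid receptors, gave -0.36.

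HSPA4L, an HSP110 relative of HSPA4, had a log2 fold change of 0.46 and HSPA12B one of 0.27. DNAJB4 gave 1.27 ± 0.84 (SE) at a mean of 1.95 FPKM, but 0.14 without DDB1_KD replicate 2, which held 9.05 FPKM, and DNAJC5, a J-domain protein of vesicles, -0.48. BAG2, an inhibitor of the ubiquitin ligase STUB1, gave 0.30 (0.09 without DDB1_KD replicate 3) and BAG6 -0.29 (-0.65 without DDB1_KD replicate 4). For the partners of TRiC, TXNDC9 gave 0.43 and PDCL3, a phosducin-like protein, 0.35. In mitochondria TIMM44, which tethers HSPA9 to the import channel, gave -0.26 and HSCB, the J-domain protein of iron-sulfur cluster assembly, 0.28, while the protease subunit CLPX gave 0.28 and the presequence protease PITRM1 -0.35. HSPB6 and HSPB11, which were listed with the small heat shock genes by name, gave -0.06 and 0.10. Leaving out 1 library reversed the sign for HSF1, HSBP1, HSPB6 and HSPB11. It kept HSF2 at 0.40 to 0.71 and PPID at 0.35 to 0.62. It moved each other list gene with a fitted value given here by over 1.5 times in at least 1 direction. Each of these had an edgeR adjusted p of at least 0.977.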

How the data were processed

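RNA of 5 DDB1_KD and 5 NC morula libraries was sequenced paired-end (Illumina), per the labels. The submitters' processing notes name fastp, HISAT2, StringTie, edgeR, HOMER, ChIPseeker and the build susScr11, without versions or roles. The deposited tables give FPKM and estimated counts per gene and isoform, per the file headers. The authors' estimated counts are whole numbers and may derive from coverage, and the deposited FPKM is 0.0001 where a count is 0. The DDB1_KD columns are spelled DBB1 and were matched by group word and number.

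Of the 33 members found, 30 were named by the table, HSP90AB1 by Ensembl names, and CCT6A and PFDN6 by RefSeq names. Of duplicate rows the one with the most counts was used. The estimated counts were tested with edgeR 4.0.16 (TMM, glmQLFit, glmQLFTest, group only, R 4.3.3) over 8476 genes and 11250 isoforms (mean FPKM at least 1), with Benjamini-Hochberg adjustment over all of them and a threshold of 0.05. Depth was 32466912 to 50911295 estimated counts, and no library pair correlated above 0.982. Log2 CPM used a prior count of 2. The fits were tested on simulated data. Intervals are 95% from the fit. Alternatives were limma 3.58.1 on log2(FPKM + 1) and log2(FPKM + 0.1), DESeq2 1.42.0, RLE scaling, no filter or a mean FPKM of at least 5, the replicate number as a block, and each library left out. Python 3.11.15, pandas 2.3.3 and matplotlib 3.10.9 made the summaries and figures.

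The members and lists were chosen with earlier results of these data known. The rule for naming took, in each role group, the most abundant member and up to 3 with the smallest p, every member whose groups did not overlap, up to 2 genes per further list and 3 isoforms. HSF1 falls outside it and was chosen with its values known. So were the main HSPD1 isoform, the HSP90AB1 and HSPA14 isoforms present in 1 library, and the DNAJB6 isoforms' values.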

Additional observations from a re-analysis of the deposited data

Results flagged for a closer look

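One chaperone gene had a library far from the others of its group. CDC37 in DDB1_KD library 5 was at 18.5 FPKM, while the other 4 DDB1_KD libraries held 34.3 to 41.7. The gap took up more of the group's range on the log2(FPKM + 1) scale than the 95% limit for 5 libraries (0.71) allows. Of 66 groups looked at, 1 had such a library, where chance gives about 3.3. Without that library the CDC37 log2 fold change was 0.16, against 0.01 with it.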

How the results depend on the processing

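No alternative called any of the 32 chaperone genes, and the counts of lower genes stayed at 20 to 24 and the median at -0.09 to -0.06 under the other models, scalings and filters. With 1 library left out the lower genes numbered 19 to 24, the median ran from -0.16 to -0.06, and lower isoforms numbered 31 to 38. At most 1 chaperone had an unadjusted p under 0.05 under any alternative. Of the 32, 22 kept their sign under every alternative run (16 lower, 6 higher), and 10 changed it when 1 library was left out: HSPA9, HSPB1, TCP1, CCT6A, CCT7, PFDN6, DNAJA2, AHSA1, CDC37 and BAG3. Under DESeq2, 2 of the 58 chaperone isoforms were called, beside 68 of all 11250 (0.604%), those of HSPD1 and HSPA8 given above. The HSPA8 isoform had counts in 2 DDB1_KD libraries alone, and why the HSPD1 call differed from edgeR was not tested. With a mean FPKM of at least 5, lower genes of the further lists numbered 18 of 49, against 33 of 73 in the main fit. RLE and DESeq2 scaling moved the median of all genes by 0.02. Replicate numbers are shared by the groups, and same-numbered libraries deviated together with correlations of -0.06, 0.13, 0.35, -0.05 and -0.14. Only DDB1_KD replicate 3 matched its own number best. Whether same-numbered libraries share more than a number was not tested. With the replicate block 0 chaperones were called, 23 were lower, and the median was -0.08. The precision is limited by the spread between 5 libraries a group.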
